A study of Mus musculus with 4 samples.

Results

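The angiopoietin and Tie genes described here are 7 of the 32286 genes counted in mouse popliteal vessels by droplet single-cell RNA sequencing. They were taken by name: the ligands Angpt1 and Angpt2, the receptors Tek and Tie1, the phosphatase Ptprb, the extracellular matrix protein Svep1, and Angptl4. All mice were adults carrying WT1GFPCre (Wt1tm1(EGFP/cre)Wtp/J) and Ai9-tdT, so that a Cre recombinase at the Wt1 locus switches on tdTomato, and all had Evans blue in the footpad. There were 2 libraries of popliteal lymphatic vessels (PLV), each from a pool of 2 mice and digested for 30 min with collagenase I, Dispase II, DNase and Liberase. A further library, called mixed here, held lymphatic and blood vessels of 1 pool of 2 mice, digested for 60 min with collagenase I and Dispase II only. The series has no untreated or wild-type comparison group.

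Angiopoietins are secreted ligands of the receptor tyrosine kinase Tie2, encoded by Tek. Angpt1 activates the receptor, Angpt2 can activate or block it depending on the context, and Tie1 is a related receptor that forms complexes with Tie2. Ptprb encodes VE-PTP, a phosphatase that removes phosphate from Tie2, and Svep1 encodes a large matrix protein that binds Tie1. Angptl4 shares the angiopoietin fold but is best known as an inhibitor of lipoprotein lipase, and is not a Tie2 ligand.

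After filtering, 1909 cells of PLV replicate 1, 516 of PLV replicate 2 and, of the mixed library, 994 remained, with median depths of 3372, 4886.5 and 6162 UMIs (unique molecular identifiers, each marking 1 captured RNA molecule). No barcode was shared between libraries. Cells were clustered within each library without the 7 genes and named from marker genes, hence the suffix -like. The classes compared in all 3 libraries were muscle-like, pericyte-like, fibroblast-like, Schwann-like, blood endothelial-like and lymphatic endothelial-like. All 7 markers of each endothelial class were detected in its cells in every library, except that Lyve1 and Ccl21a were at 0 in the 53 lymphatic endothelial-like cells of the mixed library. In that library the blood endothelial markers, which lymphatic cells share in part, summed to 4695 CPM in those cells and the lymphatic markers to 2111 CPM, where the PLV libraries had 3413 and 3315 CPM against 3566 and 4489.6 CPM. The pericyte-like cells of the mixed library likewise had more of the muscle markers (12022 CPM) than of the pericyte markers (5829.7 CPM), unlike those of PLV replicate 1 (6554 against 12474 CPM) and PLV replicate 2 (7544 against 9887 CPM). Levels are CPM, the share of a gene in the UMIs summed over a class in 1 library, scaled to 1e6 UMIs. With 3' tags, CPM does not depend on transcript length in the way full-length reads do, but capture differs between genes, so levels are compared between cell classes and not between genes.

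Sequence before the RefSeq start site was at hand for 3 of the 7 genes, Tek, Tie1 and Svep1, all on chromosome 4. In GENCODE M21, on the same GRCm38 build, transcripts of Tie1 and Svep1 start further upstream: 212 of the 250 bases before the RefSeq start of Tie1 and all 250 of Svep1 lie in annotated exons of these genes, and 0 of those of Tek. Only stretches of Tek are therefore shown, since for this receptor gene both annotations place the start after the window. They are 30-base stretches from RefSeq (GRCm38.p6), 5′ to 3′ on the gene's strand, numbered from the base before the start site as -1, with capitals for matches on either strand to ATTGT (the SOX core).
Tek, chr4:94739224-94739253, plus strand, positions -65 to -36: ctATTGTtcctgaaaatgctgaccaggacc
Tek, chr4:94739259-94739288, plus strand, positions -30 to -1: tgtaacaaagatccctctgccccACAATcc
In the 250 bases before the RefSeq start, the SOX core matched 2 times for Tek and not in the windows of Tie1 and Svep1. GGAAG, the ETS core, matched 0 times for Tek, 6 times for Tie1 and 3 times for Svep1. The forkhead letters GTAAACA had no match in these windows. Nor was GATAAG, the letters of GATA factors, found in them. Of 32851 RefSeq windows of this length, 64.1% held the ETS core, 27.7% the SOX core, 6.55% the GATA letters and 3.17% the forkhead letters.

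The receptors and the phosphatase were higher in endothelium than in the mean of the other classes. Tek in fibroblasts is described further on, and Ptprb reached 119.0 CPM (95% exact Poisson interval 74.6 to 180.1) in the pericyte-like cells of PLV replicate 1, against 8.14 and 15.99 CPM in those of the other libraries. Those 22 UMIs sat in 4 of 40 cells, in a class that also had 70.3 CPM of Cdh5, 97.3 of Pecam1 and 140.6 of Flt1, endothelial genes whose part in the value was not tested. In the comparison of the 2 endothelial-like classes with the mean of the other 4, 38.7% of the 10498 genes tested passed the threshold (21.9% higher in endothelium), and 3 of the 7 genes passed, all higher: Tek, Tie1 and Ptprb. Angpt2 and Angptl4 did not pass, with log2 differences of -0.13 (SE 0.22) and 0.39 (SE 0.23). The median log2 difference was 0.39 over the 7 genes and 0.01 over all genes. The fitted differences of Angpt1 (-1.07, SE 11.0) and Svep1 (-2.76, SE 5060) had errors too wide to read, with whole classes at 0. Neither passed, and both enter the median. With the classes summed within each library, an alternative chosen after seeing the data, Angpt1 was lower in endothelium by a log2 difference of -3.01 (SE 0.25, edgeR adjusted p = 0.000137) and Svep1 by -5.67 (SE 0.36, edgeR adjusted p = 4.52e-05).

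**Figure D1:**
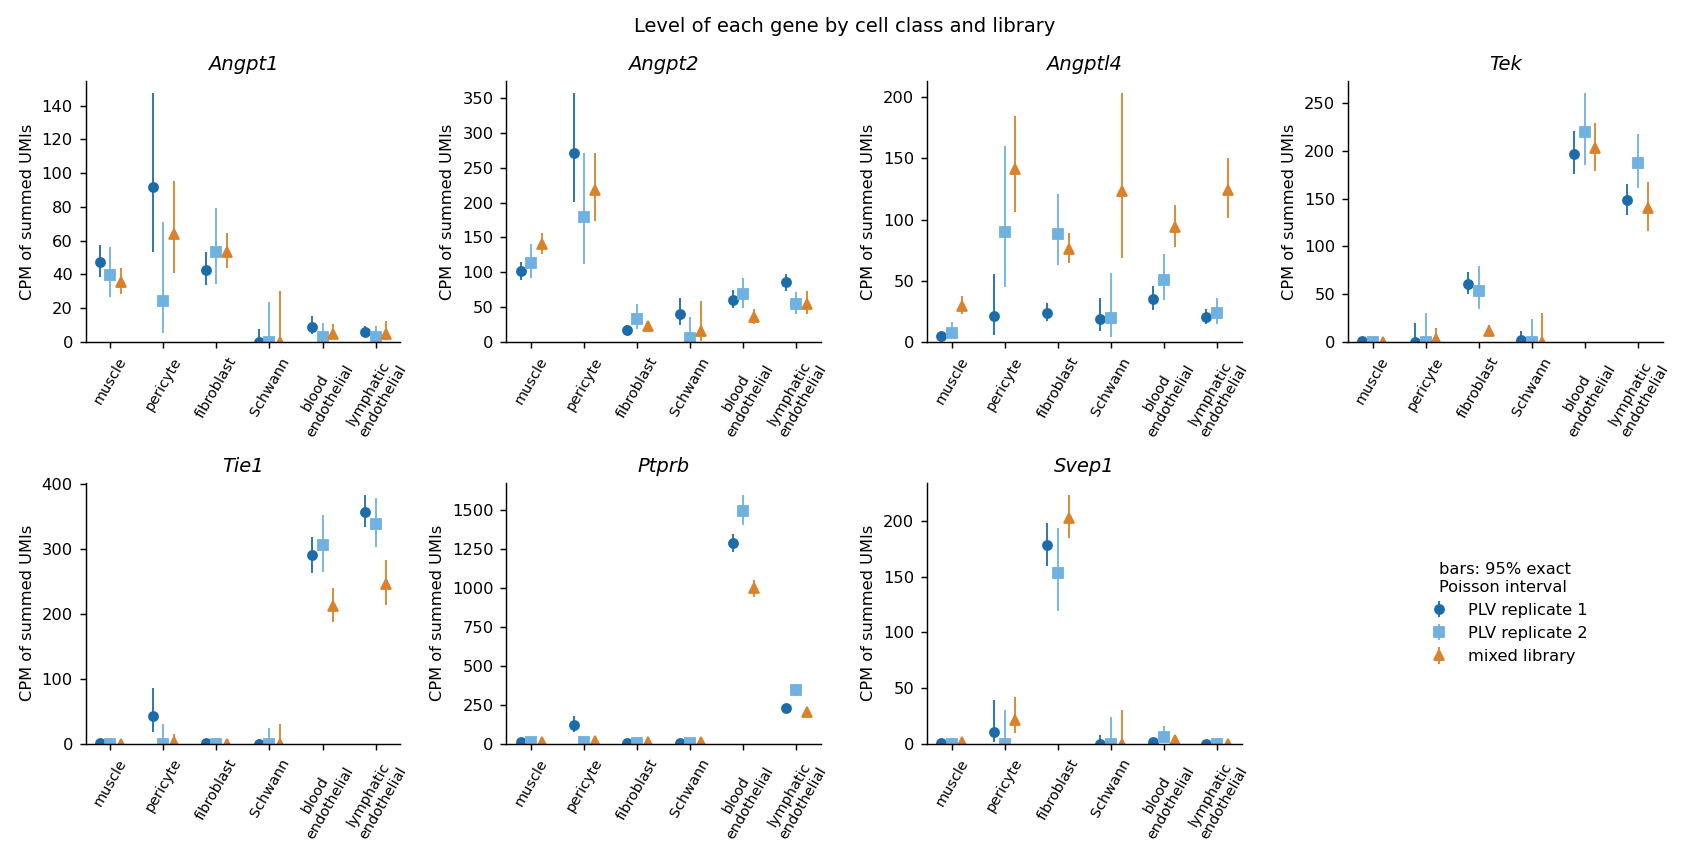
CPM of the 7 genes (vertical axes, linear, from 0) in 6 cell classes and 3 libraries, with 95% exact Poisson intervals that cover counting error only. Tek, Tie1 and Ptprb stand high in the endothelial classes, Svep1 in fibroblast-like cells, and Angpt2 in pericyte-like and muscle-like cells.

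Angpt1, the activating ligand, was found in mural and fibroblast classes. Its level was 47.2, 39.6 and 35.4 CPM in the muscle-like class (here and below, values are in the order PLV 1, PLV 2, mixed) and 42.7, 53.2 and 53.5 CPM in fibroblast-like cells. In pericyte-like cells it was 91.9, 24.4 and 64.0 CPM, from only 17, 3 and 24 UMIs. These classes overlapped, and none differed from its neighbour in the order of means: fibroblast-like minus muscle-like was 0.53 (SE 0.27, edgeR adjusted p = 0.146). Blood endothelial-like cells had 9.11, 3.17 and 4.76 CPM, below every muscle-like value, and muscle-like minus blood endothelial-like was 2.76 (SE 0.36) on the log2 scale with an edgeR adjusted p of 6.34e-06, in a pair of classes where 40.1% of genes passed. No Angpt1 UMI was found in Schwann-like cells or in the pooled immune cells of any library. In the mixed library, droplets with under 50 UMIs, which hold free RNA, had 22.0 CPM of Angpt1, 20.0 of Angpt2 and 24.98 of Svep1.

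Angpt2, the context-dependent ligand, had another order. It was highest in pericyte-like cells, at 270.4, 179.0 and 218.6 CPM, followed by muscle-like cells at 101.1, 113.6 and 140.8 CPM. The ranges did not overlap, yet pericyte-like minus muscle-like did not pass, at 0.70 (SE 0.31, edgeR adjusted p = 0.164). Angpt2 was also present in the cells that carry the receptor, at 85.3, 54.6 and 54.3 CPM in lymphatic endothelial-like and 60.5, 68.2 and 35.7 CPM in blood endothelial-like cells. The blood endothelial-like class also held the pericyte markers at a summed 1817, 843 and 1346 CPM and the muscle markers at 1325, 773 and 1278 CPM. In lymphatic endothelial-like cells the pericyte markers were at 70.9, 10.7 and 7.24 CPM and the muscle markers at 1006, 22.5 and 16.9 CPM. The part of mural RNA in these Angpt2 values was not tested. The endothelial classes overlapped and did not differ beyond their spread (0.29, SE 0.31, edgeR adjusted p = 0.628), while muscle-like exceeded lymphatic endothelial-like cells by 0.92 (SE 0.29, edgeR adjusted p = 0.0144, with 42.2% of genes passing). Fibroblast-like cells had 16.8, 33.2 and 22.7 CPM, where the free RNA of the mixed library stood at 20.0 CPM. Of the lymphatic endothelial-like cells with a Tek UMI, 40 of 91, 8 of 49 and 9 of 30 also had an Angpt2 UMI, beside 60 of 192, 11 of 69 and 11 of 53 for the class as a whole. Depth was not matched between these cells and the class, and its part in the shares was not tested.

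Within muscle-like cells the ligands were split between clusters. In each library the cluster with the most Hmcn2 (a matrix protein gene) was set beside the cluster with the most Pln (phospholamban, a regulator of the sarcoplasmic calcium pump). This choice was made after the values were seen, so it is described with no test. Angpt2 was 196.2, 195.5 and 179.6 CPM in the Hmcn2-led clusters and 55.2, 56.4 and 25.6 CPM in the Pln-led clusters. Angpt1 went the other way, with 26.4, 9.31 and 22.7 CPM in the Hmcn2-led and 57.2, 60.7 and 57.7 CPM in the Pln-led clusters. For both ligands the Hmcn2-led and Pln-led clusters did not overlap. The Hmcn2-led Angpt1 values rest on 19, 3 and 30 UMIs, and the Pln-led Angpt2 value of the mixed library on 8 UMIs. In that library both lay near free RNA, which had 22.0 CPM of Angpt1 and 20.0 CPM of Angpt2. The part of free RNA in the ligand values was not tested. In the mixed library a further cluster of 74 muscle-like cells, led by P2rx1, lay between them, with 122.2 CPM of Angpt2 and 47.2 CPM of Angpt1. Angpt4, a further angiopoietin and no member of the 7, had 0, 1 and 5 UMIs in the Hmcn2-led clusters and 85, 18 and 22 UMIs in the Pln-led clusters. Ptprb had 24, 8 and 26 UMIs in the Hmcn2-led clusters and 1, 0 and 0 in the Pln-led clusters. In the mixed library the 26 UMIs made 19.7 CPM, below the 72.0 CPM of Ptprb in free RNA. Among endothelial markers in the Hmcn2-led clusters, Pecam1 had 5, 2 and 1 UMIs, Cdh5 10, 1 and 0, Prox1 17, 0 and 5 and Flt1 18, 8 and 25. The part of endothelial and of free RNA in the Ptprb values was not tested.

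**Figure D2:**
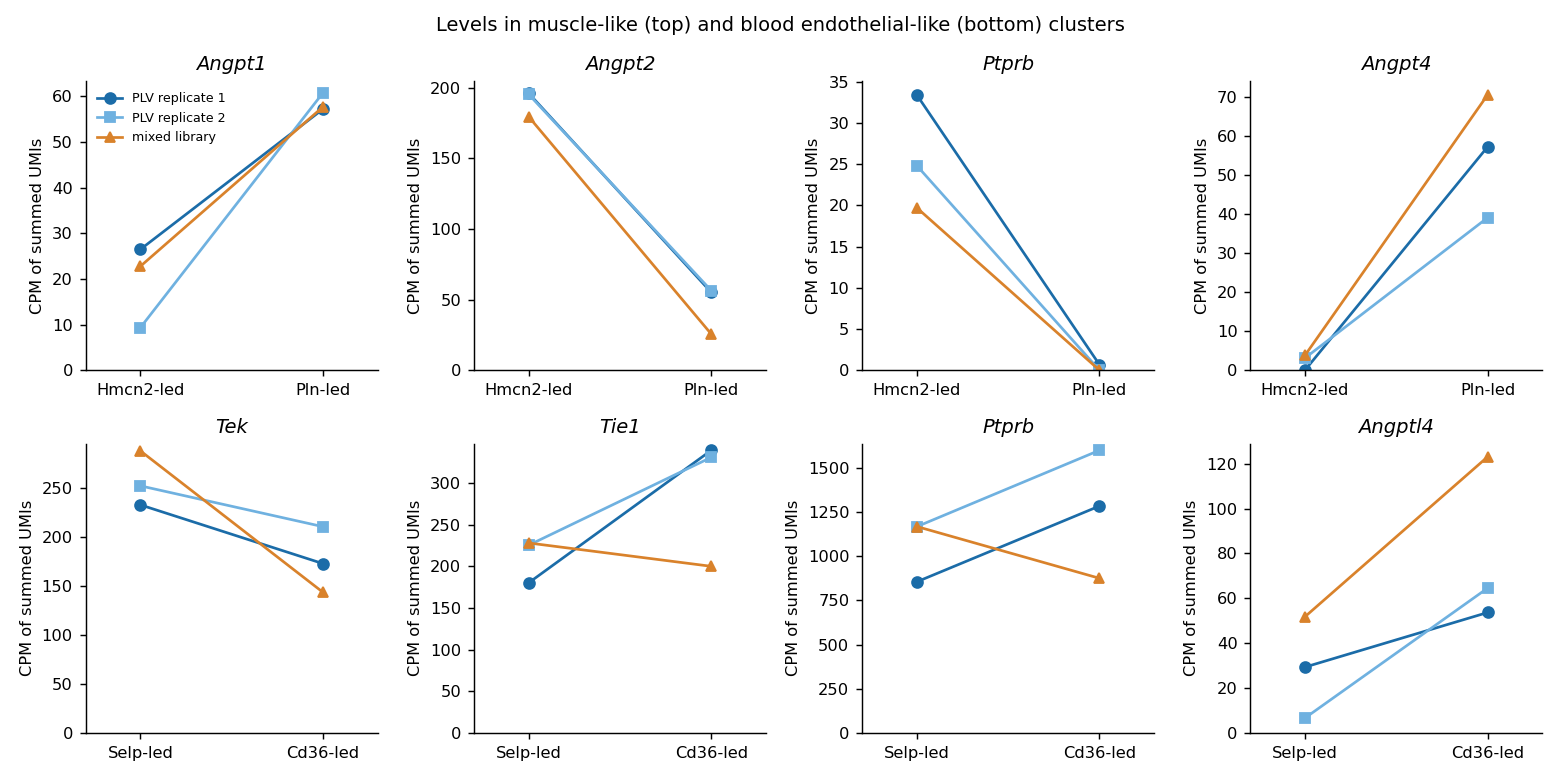
CPM (vertical axes, linear, from 0) in paired clusters of each library, joined by a line per library: muscle-like clusters in the top row and blood endothelial-like clusters in the bottom row. Angpt2 and Ptprb fall and Angpt1 and Angpt4 climb from Hmcn2-led to Pln-led clusters in all 3 libraries, whereas the lines for Tie1 and Ptprb in blood endothelium do not all slope the same way.

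Tek, which encodes the receptor Tie2, stood at 197.2, 220.3 and 203.1 CPM in the blood endothelial-like class and at 148.8, 187.4 and 140.0 CPM in lymphatic endothelial-like cells. Its log2 difference between the endothelial classes and the others was 6.00 (SE 0.31, edgeR adjusted p = 6.45e-12), and 3.67 with the classes summed within each library. Lymphatic minus blood endothelial-like was -0.42 (SE 0.27, edgeR adjusted p = 0.349), although all 3 lymphatic values lay below all 3 blood values. A Tek UMI was found in 52.2%, 76.2% and 76.2% of the blood endothelial-like class and 47.4%, 71.0% and 56.6% of the lymphatic one. With cells thinned to 1500 UMIs, which left out the shallower 72 of 295, 5 of 63 and 6 of 105 blood and 44 of 192, 4 of 69 and 5 of 53 lymphatic cells, these shares were 30.5%, 29.3% and 28.3% against 19.6%, 32.3% and 27.1%. Among pooled immune cells (B, T or NK, macrophage-like and mast-like cells in PLV replicate 1, only mast-like in PLV replicate 2 and only macrophage-like in the mixed library), 0 of 212, 1 of 37 and 0 of 31 cells had a UMI at median depths of 2258, 5139 and 5322 UMIs.

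Tie1, the partner receptor, was at 357.0, 338.4 and 246.2 CPM in lymphatic endothelial-like and 289.6, 305.9 and 211.8 CPM in blood endothelial-like cells. The ranges overlapped across libraries, while the lymphatic value was the higher in each of the 3 libraries. Lymphatic minus blood did not pass, at 0.21 (SE 0.27, edgeR adjusted p = 0.705). Against the other classes the endothelial difference was 8.50 (SE 0.33, edgeR adjusted p = 8.08e-13), and 8.10 to 9.76 leaving out 1 library. Over all libraries, Tie1 had 0 UMIs in Schwann-like, 1 in fibroblast-like and 3 in muscle-like cells, so the exact size of this difference is not read. Both receptors were often seen in 1 cell: in PLV replicate 1, 119 of 295 blood endothelial-like cells had UMIs of both, where 154 had Tek and 179 had Tie1. In the lymphatic endothelial-like cells of that library, 77 of 192 had both. Cells were not matched for depth, and its part in these counts was not tested.

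Ptprb separated the endothelial classes. It was at 1284.9, 1496.2 and 996.4 CPM in the blood endothelial-like class and at 231.9, 344.9 and 202.8 CPM in lymphatic endothelial-like cells, with no overlap. In the comparison of lymphatic with blood endothelial-like cells, 21.7% of the genes tested passed. Of the 7 genes Ptprb and Svep1 did, with a median log2 difference of -0.36 over the 7 genes and -0.02 over all genes. Ptprb differed by -2.30 (SE 0.39, edgeR adjusted p = 0.000143). Among the cells that thinning kept, 80.3%, 81.0% and 76.8% of blood endothelial-like cells had a Ptprb UMI, against 32.4%, 33.8% and 37.5% of lymphatic endothelial-like cells. Svep1 had 10 UMIs over all blood endothelial-like cells and 0 in the lymphatic class. Of the 6 classes compared, only fibroblast-like cells had at least 10 Svep1 UMIs in any library. Its call is therefore not read as a difference between the endothelial classes. It was lost without PLV replicate 1, at -4.67 (edgeR adjusted p = 0.0716). Angpt1 (-0.35, SE 0.50) and Angptl4 (-0.36, SE 0.33) did not pass.

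Within blood endothelium, the cluster with the most Selp (P-selectin, of venules) was set beside the cluster with the most Cd36 (a fatty acid receptor of capillaries). These clusters, too, were chosen after the values were seen and get no test. Tek was 232.6, 252.0 and 287.7 CPM in the Selp-led clusters and 172.7, 210.3 and 143.4 CPM in the Cd36-led clusters, higher in the Selp-led cluster of each library. Angptl4 was 29.3, 6.63 and 51.8 CPM in the Selp-led and 53.7, 64.6 and 123.1 CPM in the Cd36-led clusters, lower in the Selp-led cluster of each library. Angpt2 did not go one way, with 106.9, 26.5 and 23.0 CPM in the Selp-led and 39.2, 81.2 and 44.6 CPM in the Cd36-led clusters. The Selp-led cluster of PLV replicate 2 held only 12 cells. In PLV replicate 1 the Selp-led and Cd36-led clusters held 99 and 120 of the 295 cells of the class, and the rest are not described.

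**Figure D3:**
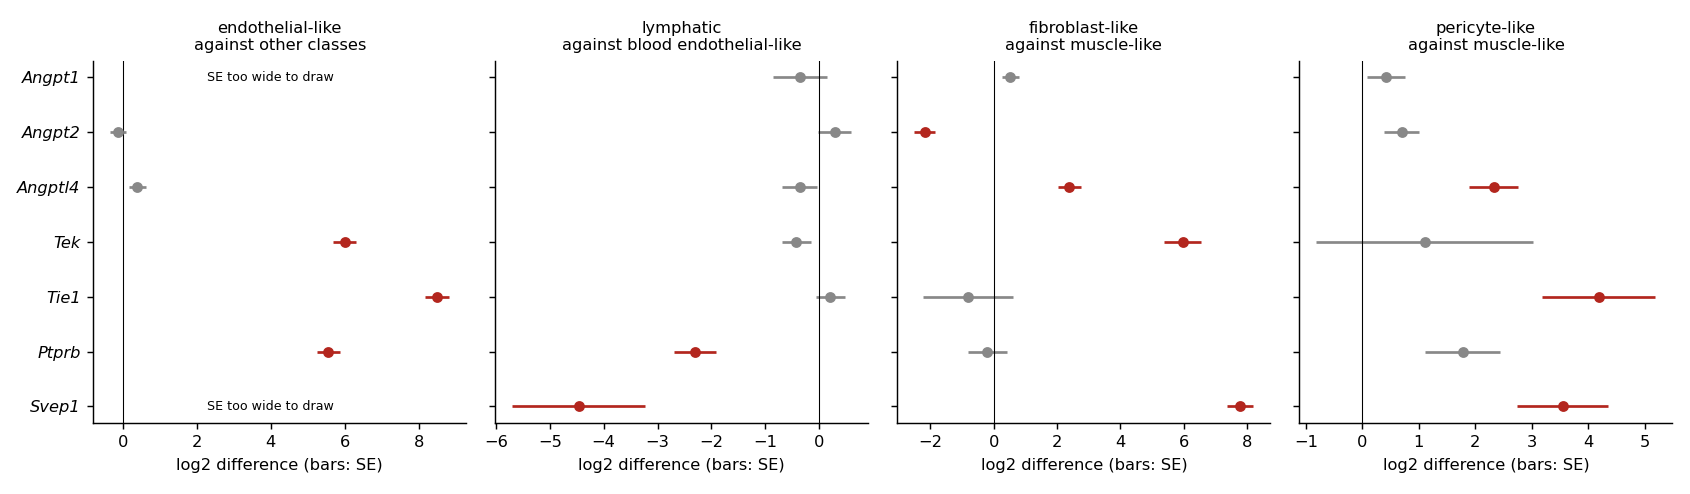
Log2 differences with SE bars for the 7 genes in 4 comparisons of cell classes. Filled red points passed an edgeR adjusted p of 0.05 over all genes tested and grey points did not; in the first comparison the errors of Angpt1 and Svep1 are too wide to draw. Some points rest on 10 UMIs or fewer in the higher class. They are Svep1 in the second comparison, Tie1 in the third, and Tek, Tie1 and Svep1 in the fourth.

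Svep1, the matrix protein that binds Tie1, was a fibroblast gene among the 6 classes compared. Fibroblast-like cells had 177.9, 152.9 and 203.0 CPM, while muscle-like cells had 0.45, 0 and 1.63 CPM and Schwann-like and lymphatic endothelial-like cells had no UMI. Of the classes compared, pericyte-like cells came next by mean, with 10.8, 0 and 21.3 CPM, far below the lowest fibroblast value. Outside them, the 15 cells with no class name in PLV replicate 1 had 123.7 CPM, from 13 UMIs. In the comparison of fibroblast-like with muscle-like cells, 38.9% of the genes tested passed, and 4 of the 7 genes did. Svep1 was higher in fibroblast-like cells by 7.77 (SE 0.42, edgeR adjusted p = 9.75e-10), Tek by 5.97 (SE 0.59, edgeR adjusted p = 9.17e-08) and Angptl4 by 2.39 (SE 0.37, edgeR adjusted p = 2.91e-05). Angpt2 was lower in fibroblast-like cells, at -2.18 (SE 0.33, edgeR adjusted p = 1.96e-05). Tie1 (-0.81, SE 1.43) and Ptprb (-0.20, SE 0.61) did not pass. The median log2 difference was 0.53 over the 7 genes and 0.03 over all genes.

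Tek in fibroblast-like cells was the exception to its endothelial pattern. The level was 61.1, 53.2 and 11.8 CPM, from 113, 24 and 25 UMIs, below every endothelial value and well above muscle-like cells, which had 3 UMIs in all. A Tek UMI was found in 84 of 388, 17 of 87 and 21 of 276 fibroblast-like cells, and 0 of these cells had a UMI of Cdh5, Pecam1 or Tie1. The free RNA of the mixed library had 19.0 CPM of Tek, 31.0 of Tie1 and 72.0 of Ptprb, so the Tek level of its fibroblast-like cells lay below that of free RNA; such droplets of the PLV libraries were not analysed here. Among endothelial cells, 153 of the 154 blood endothelial-like cells with Tek in PLV replicate 1 had at least 1 of those UMIs. The Tek-carrying fibroblasts were not spread evenly. In PLV replicate 1 the cluster led by Smpd3, Mrgprg and Col6a5 had 113.4 CPM of Tek, the Myoc-led cluster 45.4 CPM and the cluster led by Inmt and Cxcl14 14.5 CPM. Cells with a UMI of Pi16, a gene of adventitial fibroblasts, had 81.2, 95.7 and 13.2 CPM of Tek and the other fibroblast-like cells 9.64, 32.8 and 9.72 CPM, a split chosen after the values were seen.

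**Figure D4:**
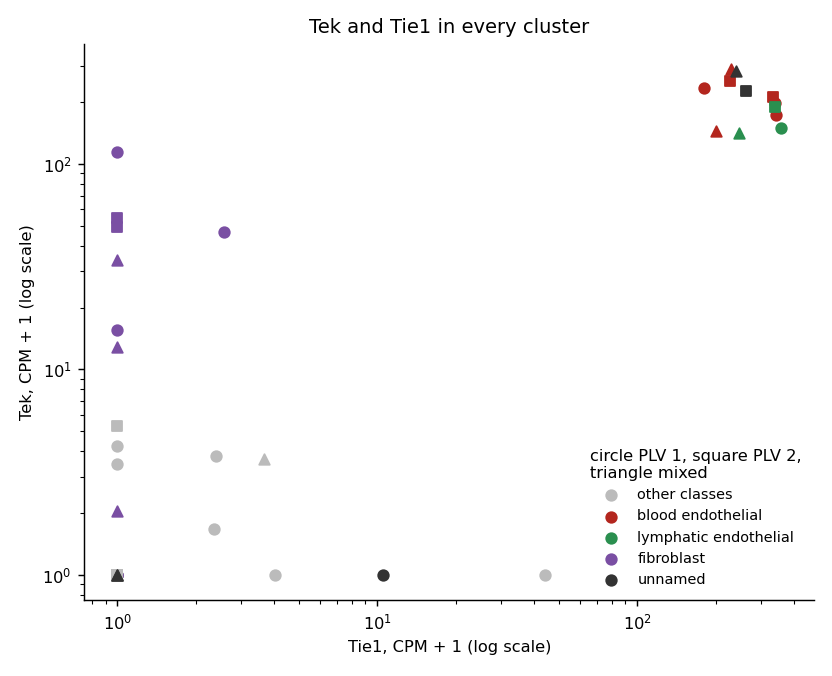
Tek against Tie1 (CPM + 1, both axes logarithmic), 1 point per cluster, with the marker shape giving the library and the colour the class. Endothelial clusters sit together at the upper right, and fibroblast-like clusters rise along the Tek axis with Tie1 near 0.

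In the comparison of pericyte-like with muscle-like cells, 12% of the genes tested passed, and of the 7 genes Angptl4, Tie1 and Svep1 did, with a median log2 difference of 1.78 over the 7 genes and -0.06 over all genes. Tie1 and Svep1 had under 10 UMIs in each library of both classes, and are in the tested set through endothelial-like and fibroblast-like cells, so only Angptl4 is read as higher. Angptl4 was higher by 2.33 (SE 0.44, edgeR adjusted p = 0.00112), with 21.6, 89.5 and 141.3 CPM in pericyte-like and 4.53, 7.66 and 29.7 CPM in muscle-like cells. Without the library block it was 2.35 and did not pass (edgeR adjusted p = 0.140). Tie1 passed at 4.19 (SE 1.00, edgeR adjusted p = 0.009) on 8, 0 and 1 UMIs in pericyte-like and 3, 0 and 0 in muscle-like cells, and lost the call without PLV replicate 1, at 3.67 (edgeR adjusted p = 0.294). In that library 5 pericyte-like cells had a Ptprb or Tie1 UMI and 3 of them also had Cdh5 or Pecam1. Pecam1 was at 97.3 CPM in those pericyte-like cells against 24.4 and 32.0 CPM in the other libraries, and its part in the Tie1 value was not tested. Svep1 passed at 3.55 (SE 0.81, edgeR adjusted p = 0.00774) on 10 against 5 UMIs, with 8 of the 10 in the mixed library, where its 21.3 CPM lay below the 24.98 CPM of free RNA. It lost the call without the mixed library, at 3.62 (edgeR adjusted p = 0.208). Ptprb (1.78, SE 0.66, edgeR adjusted p = 0.0918), Angpt1 (0.42, SE 0.34) and Tek (1.10, SE 1.92) did not pass. Leaving out 1 library put the Ptprb difference between 0.17 and 2.48. No gene of the 7 passed when the mitochondrial limit was 10% or the clustering coarser, settings that changed which cells were called pericyte-like (edgeR; 3 and 2 genes had an unadjusted p under 0.05).

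Whether Angptl4 differed between the mixed and the PLV libraries depended on the tool: it passed in 4 of 6 classes with edgeR and in 0 with DESeq2. The mixed side is 1 library against 2, so its spread is assumed to equal that of the PLV libraries. The hashtag counts were not used to split the mixed library by vessel. In this comparison of whole libraries, vessel, digestion, run, mice and counting software (Cell Ranger 4 for mixed, 6.1.2 for PLV) cannot be told apart. In muscle-like cells, where 15.4% of genes passed, it was 29.7 CPM in the mixed library against 4.53 and 7.66 CPM, a log2 difference of 2.67 (SE 0.41, edgeR adjusted p = 5.32e-06). The free RNA of the mixed library had 38.0 CPM of Angptl4, above that muscle-like level. Different clusters also held this class: the Hmcn2-led cluster had 139 of 424, 57 of 110 and 199 of 316 cells, with 13.9, 15.5 and 50.02 CPM of Angptl4, and the Pln-led cluster 285, 53 and 43 cells, with 0, 2.17 and 6.41 CPM. The part of free RNA and of the clusters in the difference was not tested. In lymphatic endothelial-like cells, where 0.222% of genes passed, it was 124.3 CPM against 20.1 and 23.6 CPM (2.75, SE 0.27, edgeR adjusted p = 0.000429). In blood endothelial-like cells (1.11% passed) it was 93.6 against 35.1 and 50.7 CPM (1.33, SE 0.29, edgeR adjusted p = 0.0394). That call was lost with at least 1000 UMIs a cell (1.08, edgeR adjusted p = 0.218) and at resolution 2 (1.02, edgeR adjusted p = 0.123). In pericyte-like cells (3.36% passed) it was 141.3 against 21.6 and 89.5 CPM (1.72, SE 0.45, edgeR adjusted p = 0.00921), a call lost with no filter on low counts (1.77, edgeR adjusted p = 0.845) and at 10% mitochondrial UMIs (2.41, edgeR adjusted p = 0.998). With coarser clustering the pericyte-like difference was 0.10, with no test. Without PLV replicate 1, whose value rests on 4 UMIs, the pericyte-like difference was 0.69, with 1 library a side and no test. Fibroblast-like cells (11.7% passed) did not pass for Angptl4 at 1.19 (SE 0.48, edgeR adjusted p = 0.119), with 76.2 CPM lying between 23.8 and 88.6 CPM. Leaving out a PLV library put the fibroblast-like difference at 0.18 to 2.17, with 1 library a side and no test. Schwann-like cells (4.05% passed) had 123.2 against 19.0 and 19.2 CPM, and did not pass (2.84, SE 1.01, edgeR adjusted p = 0.0918). With DESeq2 none of the 7 genes passed in any of these 6 classes, with an unadjusted p under 0.05 for 1 gene in each class except pericyte-like, where there was 0.

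In fibroblast-like cells 11.7% of genes passed with edgeR between the 1 mixed library and the PLV libraries. Of the 7 genes, 6 were tested and 2 passed, and 0 passed with DESeq2 (1 had an unadjusted p under 0.05). Tek was at -1.73 (SE 0.43, edgeR adjusted p = 0.0112). Ptprb was at 2.53 (SE 0.82, edgeR adjusted p = 0.048), with 2.16, 6.65 and 13.2 CPM, the last below the 72.0 CPM of free RNA. These levels came from 4, 3 and 28 UMIs. Only the mixed library, where Ptprb is high, had at least 10, so this call is not read as a difference. Ptprb did not pass at 10% mitochondrial UMIs (1.66, edgeR adjusted p = 0.112) or with doublets kept (1.65, edgeR adjusted p = 0.119). Other endothelial genes did not all follow Ptprb. Of the fibroblast-like cells with a Ptprb or Tie1 UMI, 0 of 4, 0 of 3 and 8 of 24 also had Cdh5 or Pecam1. The blood endothelial markers summed to 29.2, 51.0 and 135.8 CPM, from 6, 4 and 3 of the 7 markers, with Flt1, Emcn, Cldn5 and Sox17 at 0 in the mixed library. Cdh5 was at 2.16, 24.4 and 11.8 CPM, Pecam1 at 2.16, 0 and 3.31 CPM, and Tie1 had 1, 0 and 0 UMIs. Different clusters held the class in the 2 kinds of library. In the mixed library, 137 of the 276 cells were in a cluster led by Col4a4, Tspan11 and Nkain4, which had 1.05 CPM of Tek and held 25 of the Ptprb UMIs. The part of this cluster and of endothelial RNA in the differences was not tested. Tek, Tie1 and Ptprb in the endothelial classes did not pass between mixed and PLV libraries: Tek was at 0.11 and -0.04, Tie1 at -0.34 and -0.28 and Ptprb at -0.34 and -0.28 in the blood and the lymphatic class. Nor did the ligands pass, with Angpt2 between -0.68 and 0.63 over 5 classes and Angpt1 between -0.39 and 0.74 over 4 classes. Svep1 in fibroblast-like cells was at 0.83 (SE 0.31, edgeR adjusted p = 0.0847), and Ptprb at 0.29 in muscle-like and -1.85 in pericyte-like cells did not pass either.

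A further 43 genes were looked at in 4 lists around the pathway. In the endothelial classes against the others, where 38.7% of all genes passed, the Tie signal transduction list had 9 of 16 tested genes higher and 6 lower, with a median log2 difference of 0.45 against 0.01 over all genes. Nos3, the endothelial nitric oxide synthase, was higher by 5.97 (SE 0.26) and Klf2, a flow-responsive transcription factor, by 2.78 (SE 0.27), with edgeR adjusted p of 4.81e-13 and 6.61e-08. Grb7, an adaptor protein, also passed, with no UMI in the other 4 classes of any library. Grb14, a related adaptor, was lower by -3.82 (SE 0.53), Pik3r1, a regulatory subunit of PI3 kinase, by -2.08 (SE 0.14) and Foxo3, a forkhead factor, by -0.83 (SE 0.23). Among partners, integrins, sheddases and storage, 7 of 11 genes were higher and 3 lower, with a median of 1.32. Those named by the rule were Cdh5 (VE-cadherin) at 6.71, Kdr (VEGF receptor 2) at 6.15 and Vwf (von Willebrand factor) at 5.21, and on the lower side the integrin subunits Itgav at -1.71 and Itgb1 at -0.51 and the protease Mmp14 at -1.23. Of the lipase and hypoxia genes around Angptl4, 4 of 7 were higher and 0 lower, with a median of 0.65: Gpihbp1, which holds lipoprotein lipase on capillary endothelium, at 8.06, the nuclear receptor Pparg at 3.29 and Epas1 (HIF-2 alpha) at 2.43. Of the other ligands only 2 were tested, and Angptl2 was lower by -1.36 (SE 0.25).

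In lymphatic against blood endothelial-like cells, where 21.7% of all genes passed with a median of -0.02, the Tie signal list had 5 of 16 genes higher and 2 lower, with a median of 0.15. Grb7 was at 2.98 (SE 0.68, on 52, 18 and 19 against 9, 1 and 0 UMIs), the adaptor Shc1 at 1.95 and Foxo3 at 1.298, with Pik3r1 at -1.68 and the PI3 kinase subunit Pik3cb at -1.45. Of the partners, 3 of 11 were higher and 1 lower, with a median of 0.31. They were the integrin subunits Itgav at 2.77 (SE 0.31), Itga9, of lymphatic valves, at 2.31 (SE 0.26) and Itgb3 at 2.21 (SE 0.39), and Vwf at -1.02 (SE 0.18). Of the lipase and hypoxia genes 0 of 7 were higher and 4 lower, with a median of -1.14, among them Epas1 at -3.07, Gpihbp1 at -2.37 and Pparg at -1.26.

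In fibroblast-like against muscle-like cells, where 38.9% of all genes passed with a median of 0.03, the Tie signal list had 2 of 16 genes higher and 6 lower, with a median of -0.21. Pik3r1 was at 1.03 and Foxo1 at 0.76, with Grb14 at -4.04 and Pik3cb at -2.20. The partners had 6 of 11 higher and 3 lower, with a median of 0.65: Mmp14 at 3.21, Itgb3 at 2.24 and the sheddase Adam17 at 1.40 against Itgb1 at -1.56, the platelet and endothelial receptor Pear1 at -1.32 and Vwf at -1.27. The lipase and hypoxia genes had 1 of 7 higher, Lpl (lipoprotein lipase) at 2.68, and 3 lower, Epas1 at -5.30, Hif1a at -1.17 and the nuclear receptor Ppard at -0.99, with a median of -0.99. Angptl2 was higher by 2.42 (SE 0.32). In pericyte-like against muscle-like cells, where 12% passed with a median of -0.06, Pik3r1 was higher at 1.22 and the phosphatase Ptpn11 lower at -0.70, which were the 2 of 16 Tie signal genes that passed. The partners had 2 of 11 higher and 0 lower, with a median of -0.31, and the lipase and hypoxia genes 3 of 7 and 0, with a median of 0.38. Mmp14 at 1.12, Pparg at 3.0, Lpl at 1.80 and Angptl2 at 2.71 were among those higher. The blood endothelial markers summed to 1325, 1001 and 770 CPM in pericyte-like cells. In muscle-like cells they summed to 156, 102 and 173 CPM. The part of endothelial RNA in these differences was not tested.

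Over the 18 sums of 6 classes in 3 libraries, which share libraries and depth, the 3 genes whose log2(CPM + 5) pattern was most like each member were named by Pearson's r among 10498 genes. For Tie1 they were Icam2 (r = 0.996), Stap2 (0.993) and Fli1 (0.992). For Ptprb they were Gpihbp1 (0.989), Arhgef15 (0.985) and Robo4 (0.984). For Tek they were Edn1 (0.979), Unc45b (0.978) and Ramp2 (0.969). For Svep1 they were Mrc2 (0.975), Bdh2 (0.963) and Pdgfra (0.953). For Angpt1 they were Srpx (0.951), Il17d (0.947) and C2 (0.941). For Angpt2 they were Socs5 (0.905), Ccdc82 (0.904) and Inpp4b (0.902), and for Angptl4, the loosest, Ebp (0.859), Phax (0.820) and Nt5c (0.815).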

How the data were processed

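The authors deposited UMI counts for each gene and barcode, made with Cell Ranger (6.1.2 for PLV and 4 for the mixed library, per the file headers) on GRCm38, per the submitters' processing notes. The deposited PLV matrices held 2649 and 730 barcodes and the mixed matrix 896360. Barcodes with at least 500 UMIs, 300 genes, at most 15% mitochondrial and 20% haemoglobin UMIs were kept, and scrublet removed 10, 3 and 3 predicted doublets. Cells were clustered per library with scanpy 1.11.5 and leidenalg 0.10.2 (2000 variable genes, 50 components, 15 neighbours, resolution 1), leaving out the 7 genes and the pathway lists. A class needed 3 markers at least 2-fold up. The hashtag counts were not used to split the mixed library.

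UMI sums per library and class were tested with edgeR 4.0.16 (TMM, filterByExpr, quasi-likelihood, library as a block except for mixed against PLV) and Benjamini-Hochberg adjustment over all genes, with DESeq2 1.42.0 as an alternative. The tests were checked on simulated data with 200 genes changed 4-fold, drawn a single time per comparison. Every sum was drawn from the same mean profile with the same fixed spread. There was no library effect and no class difference beyond the changed genes, so the rates below need not hold for the real tests. Of the simulated calls, 8.11% were false for mixed against PLV in pericyte-like cells and 7.34% in blood endothelial-like cells. For pericyte-like against muscle-like cells it was 5.94%, and in the remaining comparisons 2.56% to 4.39%. The changed genes were recovered in 95% to 100% between classes and 75.5% to 85% between mixed and PLV. SE is the log2 difference over the root of F. Intervals are 95% exact Poisson and cover counting error only.

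All 7 genes were tested between classes. Between mixed and PLV, 4, 4, 6, 1, 6 and 5 of them passed the filter in muscle-like, pericyte-like, fibroblast-like, Schwann-like, blood and lymphatic endothelial-like cells. The rule for named genes took the 7 genes and from each list up to 3 genes a direction with the largest difference among those that passed in the same direction in every library; 1 gene it took is not reported here. Motifs were searched in the 250 bases before the RefSeq start only. The members and lists were chosen with earlier results of these data known. P-values between classes measure the spread of class sums left after the library block, with an estimate shared by all classes. They do not measure the spread between pools of mice. Those for mixed against PLV rest on the spread between the 2 PLV libraries, each a pool of mice.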

Additional observations from a re-analysis of the deposited data

Results flagged for a closer look

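In blood endothelium, both PLV libraries went one way and the mixed library the other, and this difference was not tested. For Tie1, the Selp-led minus Cd36-led difference in log2(CPM + 1) was -0.91 and -0.55 in PLV replicates 1 and 2 and 0.19 in the mixed library. For Ptprb it was -0.59 and -0.45 against 0.42. For Angptl4, lymphatic minus blood endothelial-like was -0.77 and -1.07 in the PLV libraries and 0.41 in the mixed library. For Ptprb, fibroblast-like minus muscle-like was -1.96 and -0.55 against 0.20. With 1 mixed library, not split by its hashtag counts, vessel, digestion, run, mice and counting software cannot be told apart.

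Some signal lay in cells outside the comparisons. Angpt1 had 7 UMIs in 9 platelet-like cells of PLV replicate 1, or 543 CPM (95% exact Poisson interval 218 to 1118). In the same library, Svep1 had 13 UMIs in 7 of the 15 cells with no class name, or 123.7 CPM (95% exact Poisson interval 65.9 to 211.5). Clusters led by Cytl1, with no class name, held 69 cells in each of PLV replicate 2 and the mixed library. In them Tek was at 224 and 283 CPM, Tie1 at 262 and 238 CPM and Ptprb at 798 and 1921 CPM.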

How the results depend on the processing

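Of the 18 single-gene results past the threshold, none reversed under 204 alternatives, and 179 of these left the call or value in place. Classes of 1 library share a pool, so the library was the block in comparisons of classes. For mixed against PLV, no paired analysis was possible because the libraries come from separate pools. Without the library block (no replicate block), the 7 genes gave 3, 2, 4 and 2 calls in the comparisons of endothelial, lymphatic, fibroblast-like and pericyte-like cells. The share of all genes passing without the block is not given beside them, so these counts are not read as results about the 7 genes. The cause of each change below was not tested.

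Calls among the 7 genes moved by over 1.5 times as follows. The number of all genes passing can move with the setting too, so these counts are not read as results about the 7 genes. Endothelial against other classes gave 5 with DESeq2 and 5 with classes summed. Lymphatic against blood gave 1 with at least 1000 UMIs, at most 10% mitochondrial UMIs or resolution 0.5, and 1 to 2 leaving out a library. Pericyte-like against muscle-like gave 0 at 10% mitochondrial UMIs and resolution 0.5. Mixed against PLV gave 0 with DESeq2 in muscle-like, pericyte-like, fibroblast-like and both endothelial classes. It also gave 0 in pericyte-like cells with no filter or 10% mitochondrial UMIs and in blood endothelial-like cells with 1000 UMIs or resolution 2. It gave 1 in fibroblast-like cells at 10% mitochondrial UMIs or with doublets kept, 1 in Schwann-like cells with no filter, 1000 UMIs or resolution 0.5, and 2 in muscle-like cells at resolution 0.5. Smaller moves were from 3 to 4 for endothelial against other classes with 1000 UMIs or resolution 0.5. Pericyte-like against muscle-like went from 3 to 4 with no filter or doublets kept and to 2 with 1000 UMIs, no block or no PLV replicate 1. Mixed against PLV in fibroblast-like cells went from 2 to 3 with 1000 UMIs, resolution 2 or no filter.

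Counts over all genes moved most between mixed and PLV. Muscle-like went from 1662 to 211 and fibroblast-like from 1227 to 228 with DESeq2. Pericyte-like went from 151 to 8 with DESeq2, 0 with no filter or 10% mitochondrial UMIs and 85 at resolution 2. Schwann-like went from 151 to 7 with DESeq2, 73 with no filter, 519 with 1000 UMIs and 491 at resolution 0.5. Blood endothelial-like went from 109 to 22 with DESeq2, 188 with DESeq2 size factors, 321 with no filter, 15 with 1000 UMIs, 327 at 10% mitochondrial UMIs, 351 at resolution 0.5 and 367 with doublets kept. Lymphatic endothelial-like went from 20 to 218 with no filter, 46 with 1000 UMIs, 154 at 10% mitochondrial UMIs, 62 at resolution 2 and 44 with doublets kept. Pericyte-like against muscle-like went from 1264 to 322 at 10% mitochondrial UMIs and 270 at resolution 0.5, and to 577 to 1228 leaving out a library. Thinning to 1500 UMIs, which removes UMIs and left out 48, 17 and 22 shallower cells, moved the share of fibroblast-like cells with Tek to 7.94%, 10% and 1.18%.

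Differences that changed sign in tested fits had no call in either fit. Mixed against PLV they were Angpt1 in muscle-like cells (0.011 with 1000 UMIs, 0.027 at resolution 2), Angpt2 in lymphatic cells (0.093 at resolution 2) and Ptprb in muscle-like cells (-0.15 with 1000 UMIs, -0.085 at 10% mitochondrial UMIs). For endothelial against other classes it was Angpt2 (0.023 at 10% mitochondrial UMIs, -0.23 to 0.15 leaving out a library). For fibroblast-like against muscle-like they were Ptprb (0.0024 with doublets kept, -1.64 to 0.44 leaving out a library) and Tie1 (0.96 at 10% mitochondrial UMIs, -0.95 to 0.018 leaving out a library). For pericyte-like against muscle-like they were Ptprb (-0.42 at 10% mitochondrial UMIs, -0.68 at resolution 0.5) and Tek (-3.14 to 3.67 leaving out a library). With 1 library a side and no test, leaving out a PLV library also gave mixed against PLV values on both sides of 0 for Angpt2 in fibroblast-like (-0.15 to 0.93), lymphatic (-0.48 to 0.18) and pericyte-like cells (-0.14 to 0.33), Tek in blood (-0.02 to 0.18) and lymphatic cells (-0.23 to 0.09) and Angpt1 in muscle-like cells (-0.20 to 0.02). Few cells limit the pericyte-like values, with 28 to 58 cells a library, and the Schwann-like values, with 38 to 234.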
